A study of Homo sapiens with 4 samples.

Results

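Immediate early response genes are a small set of genes whose transcripts appear within minutes of a stimulus, and 9 of them were followed here: FOS, FOSB, JUN, JUNB, JUND, ATF3, EGR1, IER2 and IER3. They were taken by name, with earlier results of these data known, and are 9 of the 60674 features counted in each library. The study was a pooled CRISPR screen with a single-cell transcriptome readout in human pluripotent stem cells (hPSC). It profiled 1 culture after induction towards ectoderm and 1 culture of hPSC, and the question addressed here is at what level, in which cells and in which combinations these genes were detected in either state.

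Growth factors, stress and handling reach these genes through kinases such as ERK, JNK and p38, which act on factors already sitting at the promoters, among them serum response factor with its ELK partners and CREB. FOS and JUN proteins pair through leucine zippers to form AP-1, ATF3 joins the same dimer network and mostly represses, and EGR1 is a zinc finger factor. IER2 and IER3 encode small proteins that are not related to AP-1. The transcripts are short-lived, and the phosphatases and RNA decay factors they induce close the response again. In pluripotent cells, FGF acting through ERK is a well-known standing input to this system.

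The ectoderm library came from cells that had received a lentiviral pool of guide RNAs, in constructs that also carry EGFP, and a second lentivirus with mCherry and Cas9. They had been sorted by their fluorescent proteins, had recovered for a week and had then been differentiated. The hPSC library was labelled with the same infection and sort but not with differentiation; the protocol text is shared by all samples, so the state was taken from the titles. Both are labelled as H9, an established human embryonic stem cell line, but 2 of 2 transcriptome libraries did not match that line by their expression. Accutase, a mixture of digesting enzymes, was used to make single cells in both, and no label gives the time between detachment and lysis. Each state was 1 library with its own guide pool, so state, guide pool and culture cannot be told apart, there is no replicate and no test between libraries, and every 95% interval below covers counting error only.

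The ectoderm library held 16360 cells and 91249888 UMIs (unique molecular identifiers, each standing for 1 captured transcript), with a median of 4499 UMIs per cell, and the hPSC library held 15326 cells and 83246015 UMIs, with a median of 4807.5. There were 78 cell barcodes found in both. Of 10 neural ectoderm markers, the 8 at 20 CPM (counts scaled to a common library total) or more were all at least 2-fold higher in ectoderm, and the list summed to 2407 CPM in ectoderm, against 359 CPM in hPSC. Of 10 pluripotency markers, 3 were at least 2-fold lower in ectoderm and 1, SOX2, was at least 2-fold higher, with sums of 3405 CPM in ectoderm, against 4198 CPM in hPSC. Markers of mesoderm, endoderm, neural crest, blood and endothelium, mesenchyme, surface ectoderm and neurons (5 genes each) summed to between 0.362 and 20.7 CPM per list in ectoderm and to between 0.444 and 48.0 CPM in hPSC; within them only KDR, a mesodermal and endothelial receptor, and the neuronal STMN2 were 2-fold or more apart at 20 CPM, both lower in ectoderm. Markers below that floor differed in both directions. TBXT had 204 UMIs in ectoderm and 7 UMIs in hPSC, and GSC had 209 UMIs in ectoderm and 76 UMIs in hPSC. FOXD3 had 514 UMIs in ectoderm and 950 UMIs in hPSC, and GATA4 had 2 UMIs in ectoderm and 26 UMIs in hPSC. Of all 35 markers, 10 were at 0 UMIs in ectoderm, among them SOX17, PECAM1, PTPRC, COL3A1, TP63 and KRT5, and 7 were at 0 in hPSC, among them SOX17, COL3A1, TP63 and KRT5. The part of other cell types in the results below was not tested.

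Promoter sequences are shown first, because the genes differ in the motifs found within the 250 bases searched. Of the 9 genes, all but IER3 were matched in RefSeq's table for GRCh38.p14, ATF3 at 2 starts, which gave 9 windows of the 250 bases before a start. Serum response factor binds the CArG box. In EGR1 (chr5:138465229-138465478, plus strand) the window held 2 of them, shown in capitals together with 2 copies of TGACG, the core of a CREB and ATF site, both read on the opposite strand as CGTCA:
EGR1: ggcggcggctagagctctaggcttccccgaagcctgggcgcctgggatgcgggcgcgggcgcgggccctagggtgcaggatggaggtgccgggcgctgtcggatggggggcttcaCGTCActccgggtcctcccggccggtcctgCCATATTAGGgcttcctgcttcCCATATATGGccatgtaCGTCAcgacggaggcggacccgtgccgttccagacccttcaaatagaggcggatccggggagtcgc
No bases beyond these 250 were searched, so a window without a CArG box does not say that the gene lacks one further upstream. FOS is shown next (chr14:75278578-75278773, plus strand, the 196 bases that lie outside the gene in GENCODE v29 as well), with its TGACG in capitals:
FOS: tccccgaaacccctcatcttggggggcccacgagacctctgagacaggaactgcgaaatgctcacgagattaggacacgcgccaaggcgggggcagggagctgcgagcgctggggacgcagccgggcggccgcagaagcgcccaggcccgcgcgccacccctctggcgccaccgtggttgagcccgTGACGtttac
JUND (chr19:18281623-18281872, minus strand) had the full palindrome TGACGTCA and a further CGTCA, both in capitals:
JUND: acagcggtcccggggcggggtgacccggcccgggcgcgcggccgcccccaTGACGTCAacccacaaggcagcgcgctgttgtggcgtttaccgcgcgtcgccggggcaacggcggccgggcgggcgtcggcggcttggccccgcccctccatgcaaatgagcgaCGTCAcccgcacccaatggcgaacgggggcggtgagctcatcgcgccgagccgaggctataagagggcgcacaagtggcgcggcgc
The JUN window (chr1:58784048-58784297) lies before the RefSeq start but inside the gene in GENCODE v29, which starts JUN further upstream. JUN (chr1:58784096-58784125, minus strand) and ATF3 (chr1:212565273-212565302, plus strand) are shown because theirs were the windows that held TGACATCA, in capitals within 30 bases of each:
JUN: aggccttggggTGACATCAtgggctatttt
ATF3: cacctatgataTGACATCAtatggccactc

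Motifs were searched on both strands, and a match describes letters, not a bound site. The CArG box was in 1 of the 9 windows, that of EGR1, and in 1.16% of all 35116 windows of the table. TGACATCA was in 2 of the 9 (2.37% of all windows) and TGACGTCA in 1 of the 9 (1.65%). TGACG, which TGACGTCA contains, was in 7 of the 9 (21.2%). TATAAA was in 4 of the 9 (10.7%) and GGGCGG, the core of an SP1 site, in 6 of the 9 (42.6%). TGANTCA, the AP-1 site, was in 0 of the 9 (6.57%). With 9 windows these counts are a description, and sites outside the 250 bases were not searched.

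All levels below are UMIs summed over the cells of a library and divided by its total, in CPM. UMIs come from transcript 3′ ends, so they are compared between libraries gene by gene, and the order of different genes within a library is not read as an order of transcript abundance. The 9 genes together made up 305 CPM in ectoderm (27856 UMIs) and 500 CPM in hPSC (41616 UMIs). IER2 and JUND held most of these UMIs, and the other 7 genes summed to 71.1 CPM in ectoderm, against 166 CPM in hPSC. The set was therefore sparse in both libraries, and its sum was lower in ectoderm.

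**Figure D1:**
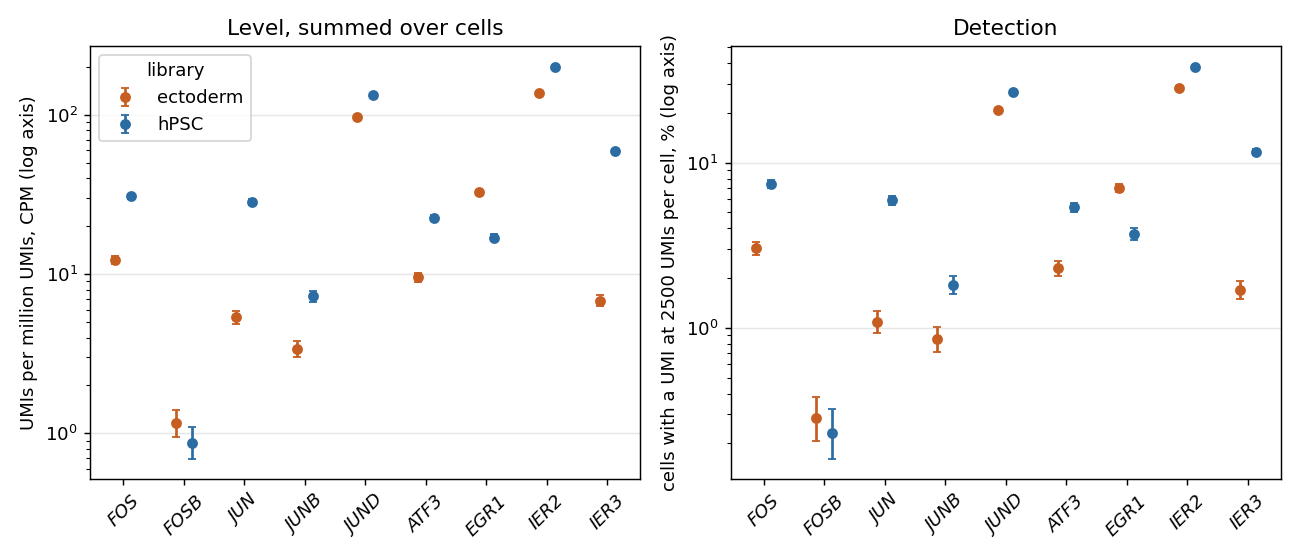
Level (left, CPM, log axis) and share of cells with at least 1 UMI after every cell was thinned to 2500 UMIs (right, percent, log axis) of the 9 genes in the ectoderm library and the hPSC library, with 95% counting intervals. Apart from FOSB, whose intervals overlap, EGR1 alone has its ectoderm point above its hPSC point, at 32.6 CPM in ectoderm, against 17.0 CPM in hPSC, and IER3 has the widest gap.

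Among the FOS subunits of AP-1, which need a JUN partner to bind DNA, FOS (ENSG00000170345, chr14:75278774-75282230, plus strand) stood at 12.2 CPM in ectoderm, against 30.8 CPM in hPSC. This is a log2 ratio of ectoderm over hPSC of -1.34 (95% interval -1.44 to -1.23). FOSB (ENSG00000125740, chr19:45467995-45475179, plus strand), whose protein can outlast that of FOS, stood at 1.16 CPM in ectoderm (106 UMIs) and 0.877 CPM in hPSC (73 UMIs). Its ratio of 0.41 had an interval of -0.04 to 0.86, which includes 0; with TMM factors the interval lay just above 0, at 0.01 to 0.90. FOS was thus lower in ectoderm, while for FOSB a direction was not detectable at this depth on the scaling used here. FOSB lies within ERCC1, a DNA repair gene on the opposite strand, with 3163 UMIs in ectoderm and 2564 UMIs in hPSC, and no source used here says whether the counting took strand into account.

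The JUN subunits, which bind DNA as pairs with each other or with FOS, split into a strongly and a weakly differing part. JUN (ENSG00000177606, chr1:58780788-58784327, minus strand), the main target of JNK, stood at 5.35 CPM in ectoderm, against 28.5 CPM in hPSC (log2 ratio -2.41, -2.56 to -2.27), the second largest difference of the 9 genes. JUNB (ENSG00000171223, chr19:12791496-12793315, plus strand), a weaker activator that can oppose JUN, stood at 3.39 CPM in ectoderm, against 7.29 CPM in hPSC (-1.11, -1.31 to -0.91). JUND (ENSG00000130522, chr19:18279760-18281622, minus strand), the subunit that many cells make without a stimulus, stood at 96.9 CPM in ectoderm, against 133 CPM in hPSC (-0.46, -0.50 to -0.42). All JUN genes had a ratio below 0, JUN the lowest and JUND the nearest to 0. JUNB lies within HOOK2, on the opposite strand, which had 3243 UMIs in ectoderm and 2772 UMIs in hPSC. The 5 AP-1 subunits summed to 119 CPM in ectoderm, against 201 CPM in hPSC.

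ATF3 (ENSG00000162772, chr1:212565334-212620777, plus strand), a stress-induced partner and repressor in the same dimer network, stood at 9.55 CPM in ectoderm, against 22.5 CPM in hPSC (log2 ratio -1.24, -1.35 to -1.12). EGR1 (ENSG00000120738, chr5:138465490-138469315, plus strand), a direct readout of ERK through serum response factor in many cell types, went the other way, with 32.6 CPM in ectoderm, against 17.0 CPM in hPSC (0.94, 0.85 to 1.04). EGR1 was 1.92-fold higher in ectoderm, just short of 2-fold, and 235 of 6249 genes, itself included, had a ratio as large or larger. The balance of FOS and EGR1, which are commonly induced together, thus differed between the libraries. There were 2.67 EGR1 UMIs for each FOS UMI in ectoderm (2.49 to 2.86) and 0.550 in hPSC (0.515 to 0.587).

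IER2 (ENSG00000160888, chr19:13150415-13154908, plus strand), a nuclear protein of growth factor responses, stood at 137 CPM in ectoderm, against 201 CPM in hPSC (log2 ratio -0.55, -0.58 to -0.52). IER3 (ENSG00000137331, chr6:30743199-30744554, minus strand), a stress-induced protein that affects cell survival, stood at 6.81 CPM in ectoderm, against 59.1 CPM in hPSC (-3.12, -3.24 to -2.997). IER3 showed the largest difference of the 9 genes, and its ratio was the 22nd lowest of 6249 genes. The antisense transcript IER3-AS1 overlaps 394 bases of IER3 and had 143 UMIs in ectoderm and 148 UMIs in hPSC, with no difference of that size.

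With 1 library per state, genes were counted by size: at least 20 CPM in 1 library and at least 2-fold apart. FOSB and JUNB were below 20 CPM in both. Of the 7 genes measured, 4 (FOS, JUN, ATF3 and IER3) were at least 2-fold lower in ectoderm, against 4.03% of all 6249 genes measured, and 0 were at least 2-fold higher, against 3.25% (7.28% in either direction). These 4 genes reached 20 CPM in hPSC only, and EGR1 reached it in ectoderm only. Passing the floor and the direction are therefore linked for them, and the count is a description. The median log2 ratio of the 7 was -1.24, beside -0.03 over all 6249 genes. The ratio was below 0 for 7 of all 9 and above 0 for EGR1 and FOSB. With a floor of 50 CPM only IER3 was counted, of 3 genes measured.

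Ratios were taken again in the 159 ectoderm and 212 hPSC cells assigned a single non-targeting guide. Such a cell may still hold targeting guides with too few UMIs to be assigned, so an effect of the targeted genes is not excluded. In these cells the ratio had the same direction for every gene but FOSB (1 UMI in ectoderm and 3 UMIs in hPSC). There the log2 ratio was -2.06 for FOS (8 UMIs in ectoderm and 41 UMIs in hPSC) and -2.998 for JUN (5 UMIs in ectoderm and 49 UMIs in hPSC). It was -1.18 for ATF3 (9 UMIs in ectoderm and 25 UMIs in hPSC) and -2.45 for IER3 (13 UMIs in ectoderm and 87 UMIs in hPSC). EGR1 was at 0.91 (26 UMIs in ectoderm and 17 UMIs in hPSC), with an interval of -0.03 to 1.88 that included 0. These cells are few: the estimates of the 4 genes that were 2-fold lower over all cells were past 2-fold here as well, but the intervals of FOS (-3.37 to -0.95) and ATF3 (-2.46 to -0.03) include smaller differences, and those of JUN (-4.68 to -1.68) and IER3 (-3.41 to -1.60) do not.

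Detection followed the levels. After every cell was thinned to 2500 UMIs, which left 15164 ectoderm and 14743 hPSC cells, IER2 was seen in 28.4% of ectoderm cells and 37.8% of hPSC cells, and JUND in 20.9% of ectoderm cells and 26.9% of hPSC cells. FOS was seen in 3.02% of ectoderm cells (2.75 to 3.31%) and 7.41% of hPSC cells (6.996 to 7.85%). JUN was seen in 1.09% of ectoderm cells (0.929 to 1.27%) and 5.91% of hPSC cells (5.53 to 6.30%). For every one of the 9 genes, most thinned cells of both libraries had 0 UMIs. EGR1 was seen in 7.03% of ectoderm cells (6.63 to 7.45%) and 3.70% of hPSC cells (3.40 to 4.02%), and IER3 in 1.70% of ectoderm cells (1.502 to 1.92%) and 11.6% of hPSC cells (11.1 to 12.2%). ATF3 was seen in 2.30% of ectoderm cells and 5.35% of hPSC cells, JUNB in 0.857% of ectoderm cells and 1.82% of hPSC cells, and FOSB in 0.284% of ectoderm cells and 0.231% of hPSC cells. The share was larger in ectoderm for 2 of the 9 genes, EGR1 and FOSB, at 1500, 2500 and 4000 UMIs per cell alike.

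Without thinning, at least 1 of the 9 genes was seen in 71.8% of ectoderm cells and 84.8% of hPSC cells. FOS was then seen in 6.20% of ectoderm cells and 14.4% of hPSC cells, JUN in 2.39% of ectoderm cells and 11.5% of hPSC cells, EGR1 in 14.8% of ectoderm cells and 7.65% of hPSC cells, and IER3 in 3.67% of ectoderm cells and 20.1% of hPSC cells. Neither library held a cell type known to lack these genes, so the part of free RNA in these shares was not measured.

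**Figure D2:**
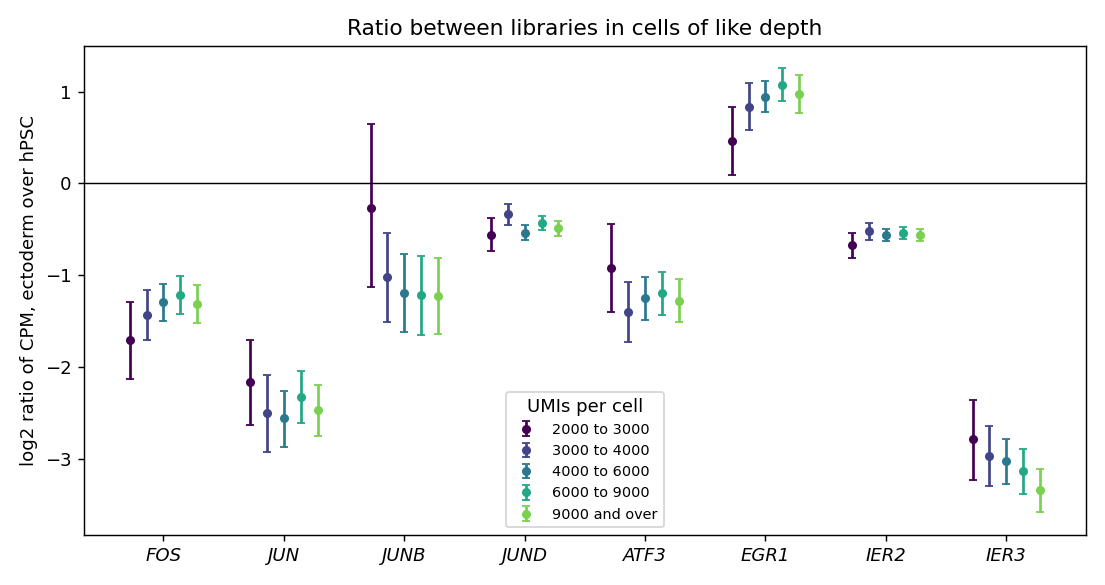
Log2 ratio of CPM, ectoderm over hPSC, for 8 genes (FOSB left out for its few UMIs) within 5 bins of UMIs per cell, with 95% counting intervals. The points of 7 genes lie below 0 and those of EGR1 above 0 in each bin, and for EGR1 the lowest bin has the smallest ratio, 0.46.

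The ratios were also taken between cells of like depth. In 5 bins of UMIs per cell the ratio stayed below 0 for FOS, JUN, JUNB, JUND, ATF3, IER2 and IER3 and above 0 for EGR1. IER3 ranged between -3.34 and -2.79, JUN between -2.56 and -2.16 and FOS between -1.71 and -1.21. EGR1 ranged between 0.46 (0.09 to 0.84), in cells of 2000 to 3000 UMIs, and 1.07 (0.89 to 1.26), in cells of 6000 to 9000 UMIs. ATF3 was at -0.92 in the lowest bin and between -1.40 and -1.20 in the others, and JUNB was at -0.27 (-1.13 to 0.64) in the lowest bin. In the plot of ratios by depth none of the 8 genes shown changed direction, and the intervals were wide in the lowest bin.

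How unevenly a gene was spread over cells was described by its overdispersion at 2500 UMIs per cell, which is 0 when cells differ by counting error alone. Its median over all genes at 20 CPM was 0.0751 in ectoderm and 0.0797 in hPSC. JUN was at 48.2 in ectoderm and 5.05 in hPSC, EGR1 at 1.92 in ectoderm and 5.86 in hPSC, FOS at 2.89 in ectoderm and 0.644 in hPSC, and IER3 at 1.21 in ectoderm and 2.70 in hPSC. FOS, JUN and IER3 in ectoderm and EGR1 in hPSC were below 20 CPM, so that median is not one of genes at their level. The rarest genes, FOSB and JUNB, were at -0.977 and -0.992 in ectoderm and at -0.971 and 0.982 in hPSC. Variance over mean for JUN was 1.63 in ectoderm and 1.34 in hPSC, a much smaller gap, beside a median of 1.01 in both. JUND, at 0.0735 in ectoderm and 0.281 in hPSC, and IER2, at 0.195 in ectoderm and 0.220 in hPSC, were spread more evenly. JUN in ectoderm was the most uneven: 18 of 16360 cells, each with 3 or more JUN UMIs, held 14.1% of its UMIs. In hPSC, the 114 of 15326 cells with 3 or more JUN UMIs held 18.4% of JUN UMIs, and the 414 cells with 3 or more IER3 UMIs held 32.7% of IER3 UMIs. The highest count in 1 cell was 8 JUN UMIs in ectoderm and 12 JUN UMIs in hPSC, 9 EGR1 UMIs in ectoderm and 10 EGR1 UMIs in hPSC, and 3 IER3 UMIs in ectoderm and 12 IER3 UMIs in hPSC.

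Co-detection asked whether the genes were seen in the same cells. For each of the 36 pairs, the thinned cells with both genes were set against the number that the product of the 2 shares gives, and pairs with at least 5 expected cells were read. In ectoderm 17 of 23 such pairs were above 1 and 5 had an interval wholly above 1, with a median of 1.07. In hPSC 24 of 30 pairs were above 1 and 12 had an interval wholly above 1, with a median of 1.18, and in neither library did an interval lie wholly below 1. By the same rule over all pairs of features, 50.1% were above 1 and 1.27% had an interval wholly above 1 in ectoderm (77573284 pairs), and 50.3% were above 1 and 1.26% had an interval wholly above 1 in hPSC (77644409 pairs). For the 9 genes these shares were 73.9% and 21.7% in ectoderm and 80.0% and 40.0% in hPSC. An interval narrows as the expected number of cells grows, and the pairs of the 9 genes and all pairs were not matched for that number. Pairs that share a gene are not independent either, so the shares are a description.

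**Figure D3:**
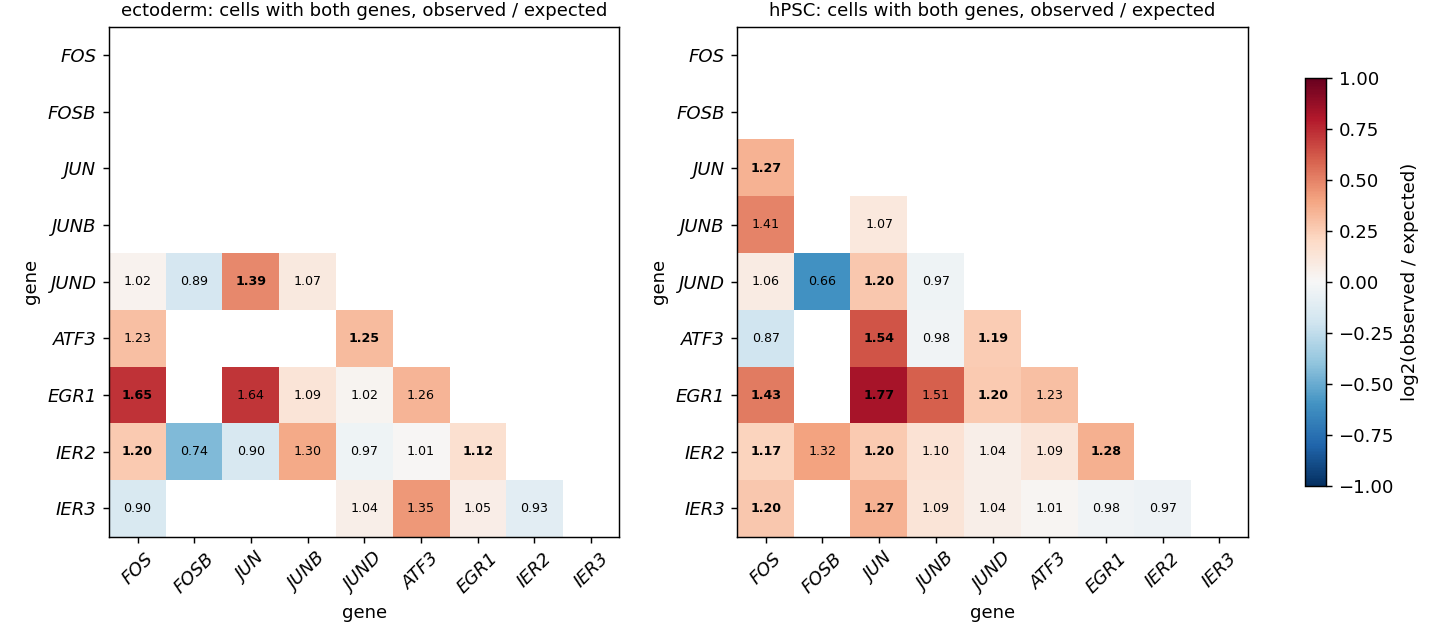
Cells with both genes of a pair, observed over expected from the 2 shares, in ectoderm (left) and hPSC (right) cells thinned to 2500 UMIs; colour shows the log2 of the number printed, bold marks a 95% counting interval above 1, and pairs with under 5 expected cells are blank. FOS with EGR1 is the highest pair in ectoderm at 1.65 and stands at 1.43 in hPSC, where JUN with EGR1 is the highest pair at 1.77.

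FOS and EGR1 were in the same cell in 53 ectoderm cells against 32.2 expected (1.65, 1.23 to 2.15), and in 58 hPSC cells against 40.5 expected (1.43, 1.09 to 1.85). JUN and JUND shared 48 ectoderm cells against 34.5 expected (1.39, 1.03 to 1.85) and 282 hPSC cells against 234 expected (1.20, 1.07 to 1.35). JUND and ATF3 shared 91 ectoderm cells against 72.9 expected (1.25, 1.01 to 1.53) and 253 hPSC cells against 212 expected (1.19, 1.05 to 1.35). These pairs, together with FOS and IER2 and with EGR1 and IER2, are the 5 with an interval above 1 in ectoderm, and all 5 had one in hPSC too. JUN and EGR1 were the most enriched pair in hPSC, in 57 cells against 32.3 expected (1.77, 1.34 to 2.29); in ectoderm they shared 19 cells against 11.6 expected (1.64, 0.986 to 2.56), a ratio of like size whose interval included 1. In hPSC JUN and ATF3 followed with 72 cells against 46.6 expected (1.54, 1.21 to 1.95). In ectoderm JUN and ATF3 shared 16 cells where only 3.797 were expected, under the limit of 5 for reading a pair.

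Of the pairs with IER3, those with FOS and JUN had an interval above 1 in hPSC. It shared 153 hPSC cells with FOS against 127 expected (1.20, 1.02 to 1.41) and 129 hPSC cells with JUN against 101 expected (1.27, 1.06 to 1.51). It shared 62 hPSC cells with EGR1 against 63.5 expected (0.976, 0.748 to 1.25) and 628 hPSC cells with IER2 against 649 expected (0.968, 0.894 to 1.05). In ectoderm it shared 19 cells with EGR1 against 18.1 expected and 68 cells with IER2 against 73.3 expected. With EGR1 and IER2, IER3 thus had close to the number that the shares give. All correlations were small: over cells of 1 library, Pearson's r of log counts for the pairs read was at most 0.0327 in ectoderm and 0.0531 in hPSC, where the 95th percentile over all pairs of genes at 20 CPM was 0.0151 in ectoderm and 0.0153 in hPSC. Cells of a library share its preparation, and in counts this sparse an r of this size is a description only.

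The thinned cells were also sorted by how many of the 9 genes each held. In ectoderm 27 cells held 4 or more, against 9.94 expected from the shares (2.72-fold, 1.79 to 3.95), and in hPSC 168 cells did, against 89.2 expected (1.88-fold, 1.61 to 2.19). The excess lay in the upper tail: 196 ectoderm cells held 3 of the genes, against 183 expected, and 744 hPSC cells did, against 693 expected. The summed level of other immediate early genes, which had no part in sorting the cells, stood at 1007 CPM in ectoderm cells with 4 or more and 765 CPM in ectoderm cells with 0. In hPSC it stood at 1164 CPM in cells with 4 or more and 773 CPM in cells with 0.

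Other readouts were set beside the number of genes held. Before thinning, the median depth was 3482 UMIs in ectoderm cells with 4 or more and 4639 UMIs in those with 0, and 4836.5 UMIs in hPSC cells with 4 or more and 4818 UMIs in those with 0; the part of depth was not tested. Genes of G2 and M phase summed to 1896 CPM in ectoderm cells with 4 or more and 2769 CPM in those with 0, and to 2143 CPM in hPSC cells with 4 or more and 2660 CPM in those with 0. The median mitochondrial share was 3.04% in ectoderm cells with 4 or more and 3.16% in those with 0, and 3.87% in hPSC cells with 4 or more and 4.22% in those with 0. Heat shock genes summed to 7748 CPM in ectoderm cells with 4 or more and 8518 CPM in those with 0, and to 11050 CPM in hPSC cells with 4 or more and 11349 CPM in those with 0. Genes of S phase summed to 1570 CPM in ectoderm cells with 4 or more and 1392 CPM in those with 0, and to 1205 CPM in hPSC cells with 4 or more and 1273 CPM in those with 0. Set against cells with 0, hPSC cells with 4 or more thus had more of the other immediate early transcripts and fewer of G2 and M phase. Classes between these did not all follow that order. The ectoderm values lay on the same sides, but G2 and M phase genes there summed to 2771 CPM in cells with 1 and 2752 CPM in cells with 2. No intervals were taken for these sums, and the ectoderm class with 4 or more had 27 cells, so no direction is read for any of them in ectoderm. None is read for S phase transcripts in hPSC either. Within clusters, which differ in their mitotic genes, the median co-detection was 1.07 in ectoderm and 1.18 in hPSC, as over all cells.

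Cells with 3 or more UMIs of 1 gene were then looked at for the others. The limit of 3 UMIs was chosen after the counts were seen, so this is a description. In hPSC, 39 cells had 3 or more EGR1 UMIs, with a median of 6548 UMIs in all. FOS stood at 123 CPM there and 30.6 CPM in the other hPSC cells (4.03-fold, 2.73 to 5.74), JUN at 111 CPM there and 28.2 CPM in the others (3.95-fold, 2.62 to 5.72), and IER2 at 457 CPM there and 200 CPM in the others (2.29-fold, 1.89 to 2.75). IER3 stood at 55.7 CPM there and 59.1 CPM in the others (0.942-fold, 0.515 to 1.58). JUND stood at 235 CPM there and 133 CPM in the others (1.77-fold, 1.34 to 2.28). High EGR1 in hPSC thus went with high FOS, JUN, IER2 and JUND, and not detectably with IER3.

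In ectoderm, 85 cells had 3 or more EGR1 UMIs, with a median of 9509 UMIs in all, and FOS and JUN were not detectably higher there. FOS stood at 13.8 CPM there and 12.2 CPM in the other ectoderm cells (1.13-fold, 0.565 to 2.04), and JUN at 3.78 CPM there and 5.36 CPM in the others (0.704-fold, 0.145 to 2.07). IER2 stood at 180 CPM there and 137 CPM in the others (1.31-fold, 1.11 to 1.55), and JUND at 115 CPM there and 96.7 CPM in the others (1.18-fold, 0.952 to 1.46). FOSB was higher in cells high in EGR1 of both libraries, on very few UMIs. Its fold was 4.46 (1.19 to 11.8) in ectoderm, on 4 UMIs, and 9.30 (1.10 to 34.8) in hPSC, on 2 UMIs. The intervals for FOS, JUN and IER2 did not overlap those in hPSC, although FOS and EGR1 did share more thinned ectoderm cells than expected. The ectoderm values rest on 11 FOS UMIs and 3 JUN UMIs, and the ectoderm cells that reached 3 EGR1 UMIs were deeper against their library's median than the hPSC cells that did. The part of depth in this difference was not tested.

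**Figure D4:**
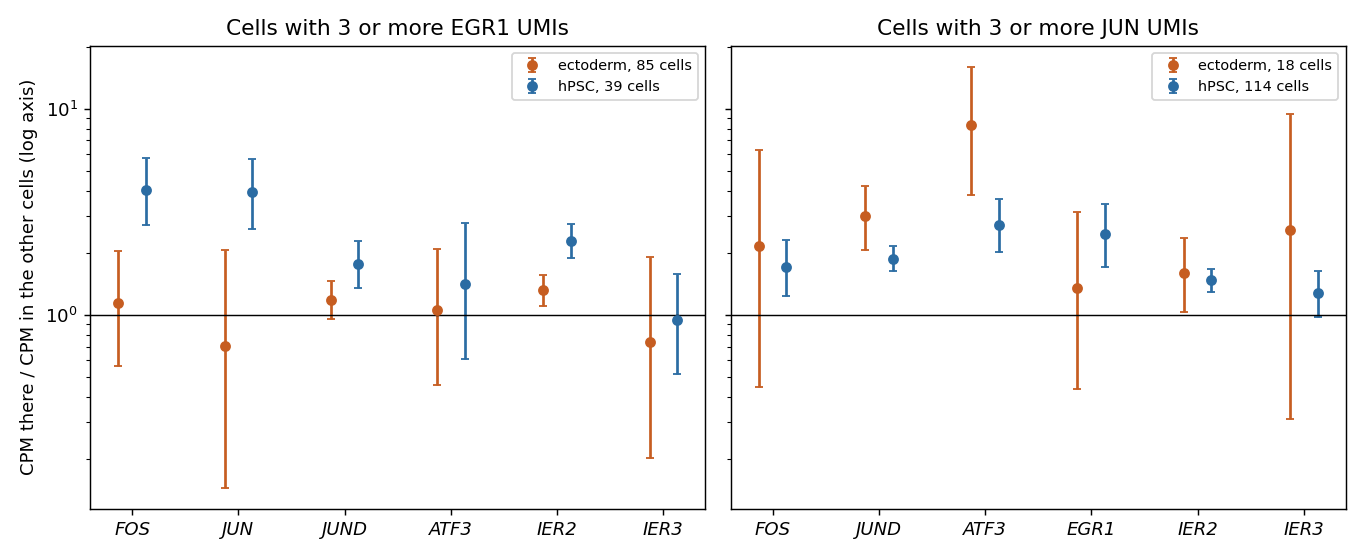
CPM of other genes in cells with 3 or more EGR1 UMIs (left) or 3 or more JUN UMIs (right) divided by their CPM in the remaining cells of the same library, log axis, with 95% counting intervals; FOSB and JUNB are left out for their few UMIs. FOS and JUN lie near 4-fold in hPSC cells high in EGR1 and near 1-fold in ectoderm cells high in EGR1, while ATF3, JUND and IER2 have intervals above 1 in cells high in JUN of both libraries.

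High JUN went with high ATF3, JUND and IER2 in both states, and in hPSC with high FOS and EGR1 too. In the 18 ectoderm cells with 3 or more JUN UMIs, ATF3 stood at 78.9 CPM and in the others at 9.46 CPM (8.35-fold, 3.803 to 15.9), on 9 UMIs. In the 114 such hPSC cells ATF3 stood at 60.5 CPM and in the others at 22.1 CPM (2.74-fold, 2.02 to 3.62). JUND stood at 289 CPM in these ectoderm cells and 96.7 CPM in the others (2.99-fold, 2.06 to 4.21), and at 247 CPM in these hPSC cells and 132 CPM in the others (1.87-fold, 1.62 to 2.15). IER2 was higher as well, at 219 CPM in these ectoderm cells and 137 CPM in the others (1.60-fold, 1.03 to 2.36), and at 293 CPM in these hPSC cells and 199.9 CPM in the others (1.46-fold, 1.28 to 1.66). FOS stood at 26.3 CPM in these ectoderm cells and 12.2 CPM in the others (2.16-fold, 0.444 to 6.32), and at 52.0 CPM in these hPSC cells and 30.6 CPM in the others (1.70-fold, 1.23 to 2.30). EGR1 stood at 41.1 CPM in these hPSC cells and 16.7 CPM in the others (2.46-fold, 1.70 to 3.46), and at 43.9 CPM in these ectoderm cells and 32.6 CPM in the others (1.34-fold, 0.436 to 3.14).

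In hPSC the first 3 genes by likeness to IER3 were not among the first 3 for any of the other 5 members at 20 CPM. The genes whose log counts correlated most with IER3 over the 14743 thinned hPSC cells were TUBB, a beta tubulin (r = 0.170), POU5F1, the pluripotency factor OCT4 (0.126), and ENY2, a subunit of chromatin and RNA export complexes (0.110), where the median pair of genes had 0.0002. TUBB (chr6:30720201-30725426, plus strand) ends 17.8 kb from IER3 on the same chromosome, and POU5F1 (chr6:31164337-31180731, minus strand) lies 420 kb on its other side, while ENY2 lies on another chromosome. Sorting hPSC cells by IER3 showed the size of the difference. TUBB stood at 2594 CPM in cells with 2 IER3 UMIs (253 cells) and 1687 CPM in cells with 0 (13028 cells), POU5F1 at 1584 CPM in cells with 2 and 1127 CPM in cells with 0, and ENY2 at 797 CPM in cells with 2 and 504 CPM in cells with 0.

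**Figure D5:**
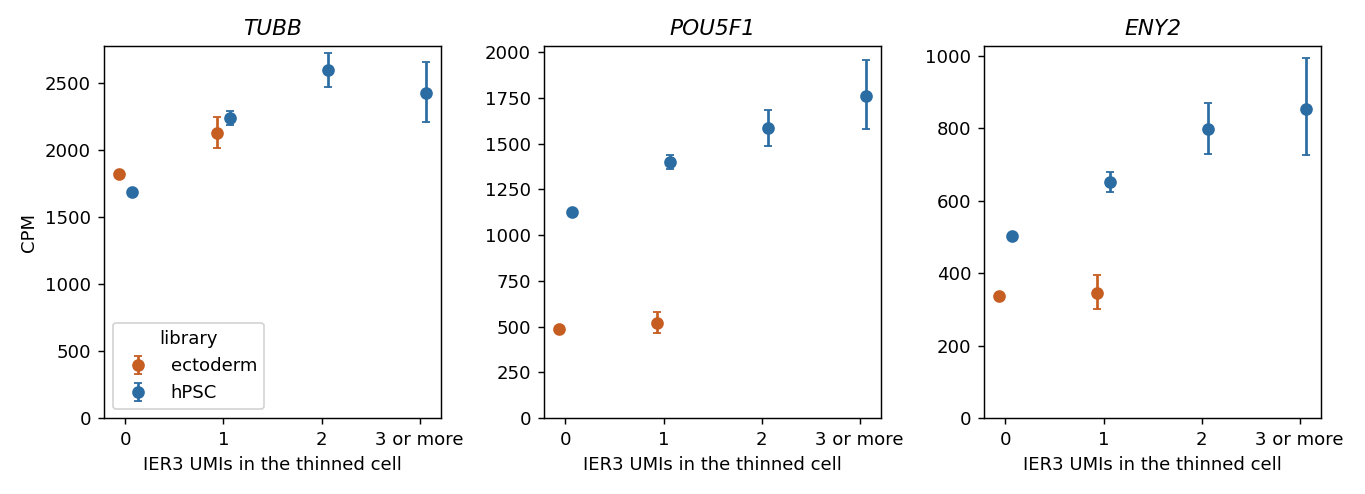
CPM of TUBB, POU5F1 and ENY2 in thinned cells sorted by their number of IER3 UMIs, with 95% counting intervals; classes with under 50 cells are left out, which leaves 0 and 1 UMI in ectoderm. In hPSC all 3 genes are higher in cells with 1, 2 and 3 or more IER3 UMIs than in cells with 0, and in ectoderm TUBB alone has intervals that do not overlap.

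In ectoderm TUBB stood at 2127 CPM in the 255 cells with 1 IER3 UMI and 1818 CPM in the 14906 cells with 0. POU5F1 stood at 521 CPM (466 to 580) in ectoderm cells with 1 and 489 CPM (482 to 496) in those with 0, and ENY2 at 347 CPM (302 to 396) with 1 and 336 CPM (331 to 342) with 0. Of the 3 genes, TUBB alone had intervals that did not overlap in ectoderm. Counting of reads between the neighbouring TUBB and IER3 was not examined here.

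The genes most like the set as a whole were taken as those with the highest mean r with its members at 20 CPM. In hPSC (6 members, 14743 cells) these were GDF15, a secreted stress cytokine (0.0471), the nuclear RNA NEAT1 (0.0399), TUBB (0.0381), the translation factor EEF1A1 (0.0322) and CDKN1A, the cell cycle inhibitor p21 (0.0293). With IER3 left out, TUBB had a mean r of 0.0117 with the other 5 members. GDF15 was the first gene for JUN (0.0597), JUND (0.0861) and ATF3 (0.0663) taken singly. In ectoderm (3 members, 15164 cells) they were the histone gene H4C3 (0.0371), RPS6 (0.0195), DAZAP2 (0.0178), LRRC75A (0.0176) and H3-3B (0.0170). The lists had no gene in common, they rest on different members, and the values are too small to say more than that.

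Cells were clustered within each library without the 9 genes and without the other immediate early genes. The 3 ectoderm clusters (6973, 4363 and 5024 cells) differed in G2 and M phase genes, with 1230, 2410 and 4912 CPM, but the 9 genes summed to between 299 and 316 CPM in all of them. EGR1 lay between 31.5 and 33.4 CPM there, and FOS between 11.5 and 13.1 CPM. JUN was at 6.05 CPM in the highest and 4.49 CPM in the lowest cluster (1.35-fold, 1.08 to 1.69). The sum was thus nearly flat over ectoderm clusters although these differed in mitotic genes.

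In hPSC the 4 clusters (4481, 8074, 1507 and 1264 cells) had sums between 428 and 516 CPM. EGR1 stood at 18.8 CPM in the highest and 10.4 CPM in the lowest cluster (1.80-fold, 1.40 to 2.37), and JUND at 144 CPM in its highest and 92.6 CPM in its lowest cluster (1.55-fold, 1.39 to 1.73). IER3 stood at 68.6 CPM in its highest and 43.9 CPM in its lowest cluster (1.56-fold, 1.33 to 1.83), and JUN at 29.9 CPM in its highest and 20.7 CPM in its lowest cluster (1.45-fold, 1.20 to 1.75). The lowest values of these 4 genes were in the same cluster of 1507 cells, whose median was 3781 UMIs per cell. IER2 did not follow, with 201 CPM in its highest and 200 CPM in its lowest cluster (1.00-fold, 0.945 to 1.07). No cluster was given a name, and clusters of 1 library are not replicates.

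None of the 9 genes was among the targets of the guides. A single guide was assigned in 3686 ectoderm cells and in 2915 hPSC cells. Before the rules of assignment, guides of 80 targets were seen in the kept ectoderm cells and of 113 targets in the kept hPSC cells. Among the 28 ectoderm targets with at least 50 cells, the 9 genes summed to 372 CPM (324 to 425) for NUP98, a nuclear pore protein, and 364 CPM for MDC1, a DNA damage adaptor, at the upper end, and to 281 CPM for SOX2 and 262 CPM (214 to 316) for RANBP10 at the lower end, beside 293 CPM (261 to 329) in non-targeting cells. Among the 8 hPSC targets they summed to 584 CPM (498 to 681) for COA3 and 538 CPM for SH3GL1 at the upper end, and to 435 CPM for KRT86 and 434 CPM (365 to 511) for ZYX at the lower end, beside 538 CPM (498 to 580) in non-targeting cells. The interval held the value of the whole library for 26 of 28 ectoderm and 8 of 8 hPSC targets. The exceptions were NUP98 and MDC1, both higher, and when guides were assigned at 10 UMIs in place of 20 the interval held the library value for 29 of 29 ectoderm targets.

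Other immediate early genes were read from fixed lists, at 5 CPM or more in 1 library for the median and by the same rule of size for the counts. Of 19 other immediate early transcription factors, 8 were measured (4 of them at 20 CPM), with a median log2 ratio of -0.55 beside -0.02 over all 10769 genes at 5 CPM. HES1, the Notch target, was higher in ectoderm at 131 CPM, with 19.3 CPM in hPSC (2.76), and MYC was lower at 22.1 CPM, with 103 CPM in hPSC (-2.22), as was KLF10 at 10.4 CPM, with 23.8 CPM in hPSC (-1.19). FOSL1, the FOS relative that responds to sustained ERK activity, had 3.43 CPM in ectoderm, against 17.7 CPM in hPSC, below the floor. SRF, which binds the CArG box, stood at 17.6 CPM in ectoderm, against 17.0 CPM in hPSC (0.05). Of 25 other immediate early proteins, 22 were measured (11 at 20 CPM), with a median of -0.42. EDN1, the endothelin ligand, was higher in ectoderm at 29.8 CPM, with 1.80 CPM in hPSC (4.05), while BTG2, an antiproliferative factor, was lower at 5.50 CPM, with 20.6 CPM in hPSC (-1.91), and so was GADD45B at 6.58 CPM, with 22.4 CPM in hPSC (-1.77).

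The genes that close the response were mixed. Of 14 feedback phosphatases and RNA decay factors, 10 were measured (7 at 20 CPM), with a median of -0.24, 5 above and 5 below 0. The ERK phosphatase DUSP6 was lower in ectoderm at 5.87 CPM, with 194 CPM in hPSC (-5.05), and the ERK pathway inhibitor SPRY4 was lower at 5.17 CPM, with 63.6 CPM in hPSC (-3.62). DUSP4, a nuclear phosphatase of ERK, was higher in ectoderm at 64.8 CPM, with 15.7 CPM in hPSC (2.04). Below the floor, DUSP1, itself an immediate early gene, stood at 8.54 CPM in ectoderm, against 5.44 CPM in hPSC (0.65). DUSP5, also below the floor, went the other way, at 1.37 CPM in ectoderm, against 16.3 CPM in hPSC (-3.57). The feedback genes thus did not share 1 direction, as FOS and EGR1 did not.

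The genes upstream are the kinases and the factors at the promoters. Of 16 kinases that feed these genes, all were measured (11 at 20 CPM), with a median of 0.15. The largest ratio was that of BRAF, the RAF kinase above ERK, at 43.8 CPM in ectoderm, against 22.7 CPM in hPSC (0.95), and the smallest that of MAP2K1, the kinase of ERK, at 30.9 CPM in ectoderm, against 42.8 CPM in hPSC (-0.47). Of 16 promoter-bound activators, 15 were measured (11 at 20 CPM), with a median of 0.14. Of the 11 kinases and 11 activators at 20 CPM, 0 were 2-fold apart, beside 7.28% of all genes measured, so with so few genes a count of 0 is near the background. CREB1 stood at 64.4 CPM in ectoderm, against 40.5 CPM in hPSC (0.67), and ELK3, a partner of serum response factor, at 2.81 CPM in ectoderm, against 7.80 CPM in hPSC (-1.47), below the floor. Of 19 other leucine zipper partners, 16 were measured (9 at 20 CPM), with a median of 0.17. MAF was higher in ectoderm at 31.5 CPM, with 3.87 CPM in hPSC (3.02). Transcript levels do not report the activity of kinases or of the factors they phosphorylate.

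Heat shock genes were listed because cell handling can induce them along with immediate early genes. All 14 were measured and all 14 had a ratio below 0, beside 5538 of all 10769 genes at 5 CPM, with a median of -0.46 and sums of 8138 CPM in ectoderm, against 11181 CPM in hPSC. HSPD1, a mitochondrial chaperone, stood at 794 CPM in ectoderm, against 1454 CPM in hPSC (-0.87), and the inducible HSPA1A at 24.997 CPM in ectoderm, against 39.8 CPM in hPSC (-0.67). Of the 12 at 20 CPM, 0 were 2-fold apart. Handling cannot be told apart from state here. Its part in the lower levels of FOS, JUN, ATF3 and IER3 and in the higher level of EGR1 in ectoderm was not tested.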

How the data were processed

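The authors deposited UMI counts per gene and cell barcode. The submitters' processing notes name STARsolo, STAR and the build GRCh38; no source used here gives the versions, the annotation or the use of strand. The deposited amplicon tables list reads with a cell barcode and a guide, and their mismatch counts were made by the authors. The labels name version 2 of the 3′ chemistry, whereas read 1 of the amplicons has 28 bases, as in later chemistry. The hPSC amplicon table, of 1048575 reads, may be part of a longer one.

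Cells were kept with at least 1000 UMIs, 500 genes and at most 20% mitochondrial UMIs, which removed 0 ectoderm and 7 hPSC barcodes; doublets were not removed. UMIs were summed per library and given as CPM of all 60674 features. Intervals are at 95% and exact: conditional binomial for log2 ratios and folds, Clopper-Pearson for shares, Poisson for sums and for observed over expected cells. Expected co-detection is the product of 2 shares in cells thinned to 2500 UMIs. Genes differing were those with at least 20 CPM in 1 library and at least 2-fold, leaving out the 3 transgenes. Named genes are the 9 members, up to 3 genes from each end of each list, the 5 genes most like the set per library and the 2 highest and 2 lowest targets per library; sex-linked genes that could describe a person were passed over in the ranking of likeness, and the genes most like single members, with those shown for IER3, were chosen after their values were seen. Clusters used scanpy 1.11.5 (2000 variable genes, 30 components, 15 neighbours, Leiden resolution 0.5). A guide was assigned where it alone had at least 20 UMIs in a cell. edgeR 4.0.16 gave TMM factors for 1 alternative scaling only. The steps were tested on simulated data. Positions are from GENCODE v29 on GRCh38. The members, lists and comparisons were chosen with earlier results of these data known.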

Additional observations from a re-analysis of the deposited data

How the results depend on the processing

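Each log2 ratio was taken again under 8 alternatives: 2 other scalings, a stricter cell filter, leaving out the 1% of cells with most UMIs, thinning, non-targeting cells only and, chosen after seeing the data, leaving out barcodes found in both libraries and averaging CPM over cells. Of these 72 values, 63 stayed within the interval of the value reported, 8 moved out of it with the same sign and 1 was reversed: FOSB, at -1.29 in non-targeting cells (1 UMI in ectoderm and 3 UMIs in hPSC). In those cells FOS was at -2.06, JUN at -2.998, JUNB at -3.51, IER2 at -0.67 and IER3 at -2.45; the number of UMIs there is small, and the cause of the shifts was not tested. EGR1 stayed between 0.89 and 0.99 and ATF3 between -1.24 and -1.18. The 4 genes at least 2-fold lower in ectoderm were the same under those 8 alternatives; with a floor of 50 CPM the count was 1 (IER3), because 3 of the genes were then measured, and with no floor JUNB joined them. Counts over all genes, 203 higher and 252 lower in ectoderm, became 342 and 404 in non-targeting cells, 2719 and 3883 with no floor and 102 and 133 with a floor of 50 CPM. TMM factors moved the median of all genes to 0.01 and left the direction of all 9 genes. Median co-detection lay between 1.06 and 1.11 in ectoderm and between 1.07 and 1.18 in hPSC over 5 alternatives. Assigning guides at 10 UMIs gave sums between 273 and 354 CPM over 29 ectoderm targets and between 434 and 563 CPM over 10 hPSC targets; the lowest and highest targets were then TST and GPT2 in ectoderm and YAP1 and COA3 in hPSC. No paired analysis was possible because each group is 1 library. Depth limits FOSB and JUNB most, and a count of 3 UMIs, the floor used for 0, is 0.0329 CPM in ectoderm and 0.0360 CPM in hPSC.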
